A study of Homo sapiens with 12 samples.

Results

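The proteasome is the protease that destroys proteins marked with ubiquitin, and its genes were picked by symbol from the RNA-seq tables of *SMN*-KD and SCR neurons. A gene entered the set when its symbol was PSMA, PSMB, PSMC, PSMD, PSME, PSMF or PSMG followed by a number, or *POMP*. Of 16406 genes in the iMN table and 19016 in the i3N table, 46 and 47 symbols met this rule. For 45 of them both tables hold the identifier of the main GRCh38 annotation, and counts below refer to these 45 unless stated. *PSMB8* and *PSMB9* were represented only by identifiers of alternate assembly sequences, and *PSMA8* (testis) and *PSMB11* (thymus) had no row in the tables analysed here. The mean normalized count of all 45 was 100 or more in each table. The iMNs (labelled HB9-iMN, motor neuron) were made from the iPSC line NINDS (NH50286) and sorted by a Td-Tomato reporter driven by the HB9 promoter. The i3Ns (labelled iNeuron, cortical neuron) were made from the embryonic stem cell line H1 by inducible expression of NGN2, which drives neuronal differentiation. In each cell type, 3 libraries came from cells with an shRNA against *SMN1* and *SMN2* (*SMN*-KD) and 3 from cells with a scrambled shRNA (SCR), both delivered by the same type of lentiviral vector, which expresses the shRNA under doxycycline control together with TagRFP. RNA was collected after 12 days of knockdown. Each cell type rests on 1 stem cell line, so cell type, stem cell line and differentiation protocol cannot be told apart.

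The 20S core particle is a barrel of PSMA (alpha) and PSMB (beta) rings with the protein-cutting sites inside. The 19S regulatory particle caps it: its base holds the PSMC ATPases that unfold substrates, and its lid holds *PSMD14*, the enzyme that cuts the ubiquitin chain off a substrate as it is fed in. Other caps (*PSME1* to *PSME4*) open the barrel without the lid, and dedicated chaperones (*PSMG1* to *PSMG4*, *POMP*, and *PSMD5*, *PSMD9* and *PSMD10* for the base) build the particle and then leave or are destroyed. The subunits are needed in fixed proportions, and cells short of proteasome activity are known to raise the subunit genes together through the transcription factor *NFE2L1*. Neurons depend on the proteasome for turnover of synaptic proteins, and interferon makes many cell types exchange the catalytic beta subunits for immunoproteasome forms.

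The knockdown was present in both tables. Summed over their 5 identifiers, which share reads between near-identical copies, *SMN1* and *SMN2* fell by 77.9% in iMNs and fell by 82.7% in i3Ns. In SCR and *SMN*-KD libraries the sum was 1923 and 424 normalized counts for iMNs, and 1839 and 318 for i3Ns. The files hold a mean over 6 libraries, a fold change and its standard error (SE) for each gene, so values of single libraries cannot be shown and the SE carries the spread between libraries. Nothing in the labels says whether libraries of a group came from separate cultures, so p-values measure the spread between these libraries, which may be technical. Neuronal markers were high in both tables. Mean normalized counts of the motor neuron markers in the iMN table were 429.7 (*MNX1*), 1663 (*ISL1*), 70.6 (*ISL2*), 533 (*CHAT*), 3115 (*SLC18A3*) and 8460 (*SLC5A7*). In the i3N table, whose label is cortical neuron, they were 2279, 14299, 3558, 527, 1865 and 2472 in the same order. Of the glutamatergic and cortical markers, *SLC17A6* (11237), *SLC17A7* (6490), *CUX2* (2033) and *NEUROD2* (1215) were well detected in the i3N table too, and *NEUROD6* had no row there. In the iMN table *SLC17A6*, *SLC17A7* and *CUX2* had 593, 50.1 and 1734, and *NEUROD2* and *NEUROD6* had no row. The tables were normalized separately, so these levels are only set side by side. Fewer cells of a type and less RNA per cell cannot be told apart in such bulk RNA.

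Because an shRNA can also lower transcripts that match the first bases of its guide strand, the 3′-UTRs of the MANE Select transcripts were searched for 7 bases complementary to guide bases 2 to 8 (CTAATAA) or 3 to 9 (GCTAATA) of the *SMN* shRNA. Of the 45 genes, 6 held such a match, 13.3%, against 19.9% of all genes whose mean count was 100 or more in either table. Proteasome 3′-UTRs were short, with a median of 366 bases against 1489 for all genes with a 3′-UTR and a mean count of 100 or more in iMNs. The matches are shown because the genes that hold them are read separately below. Capitals mark the 7 bases, the coordinates (GRCh38) are those of the capitals, and each line runs 5′ to 3′ along the transcript.
*PSMA5* (chr1:109401965-109401971, minus strand, exon 9 of 9): aatttcagttCTAATAAtgtccttaaa
*PSME4* (chr2:53864689-53864695, minus strand, exon 47 of 47): cgttgagagaCTAATAAggcttaatat
*PSMA2* (chr7:42917425-42917431, minus strand, exon 8 of 8): cttataaatcCTAATAAactgttaaac
*PSMA2* (chr7:42916875-42916881, minus strand, exon 8 of 8): gaaataaaatGCTAATActtaagtgtc
*PSMD5* (chr9:120816842-120816848, minus strand, exon 10 of 10): aaacttactcCTAATAAacagactcag
*PSMC6* (chr14:52728297-52728303, plus strand, exon 14 of 14): cgtaatatttGCTAATAtgtgactggg
*PSMD12* (chr17:67339444-67339450, minus strand, exon 11 of 11): attggtcacaCTAATAAcatcaacatc

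Most proteasome genes moved little. In iMNs, 16 of the 45 rose and 3 fell at an adjusted p-value under 0.01 (Benjamini-Hochberg over all genes of the table; a gene outside it is referred to as not called), 35.6% and 6.67%, where 17.1% and 18.7% of all genes tested rose and fell. Among genes whose mean count was 100 or more, a fairer measure for such well-expressed genes, 21.2% rose and 23.1% fell in iMNs. The median counts of the 45 were higher still, 2833 in iMNs and 3077 in i3Ns, and no set matched by count was used. In i3Ns, 17 rose and 13 fell, 37.8% and 28.9%, beside 22.8% and 25.7% of all genes and 31.5% and 32.8% of those with a mean of at least 100. In i3Ns the shares lay near those of genes with a mean of at least 100, whereas in iMNs the rises were more frequent and the falls less frequent among proteasome genes than in the table. Their median on the log2 fold change scale was 0.10 in iMNs and 0.04 in i3Ns, beside 0.01 in both for all genes with a mean of at least 100, and 33 and 27 of the 45 lay above 0. The median size of the change, sign aside, was 0.13 in iMNs and 0.23 in i3Ns, smaller than the 0.19 and 0.34 of all such genes. With every SE doubled, 1 call remained in iMNs (*PSMD14*) and 9 in i3Ns.

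**Figure D1:**
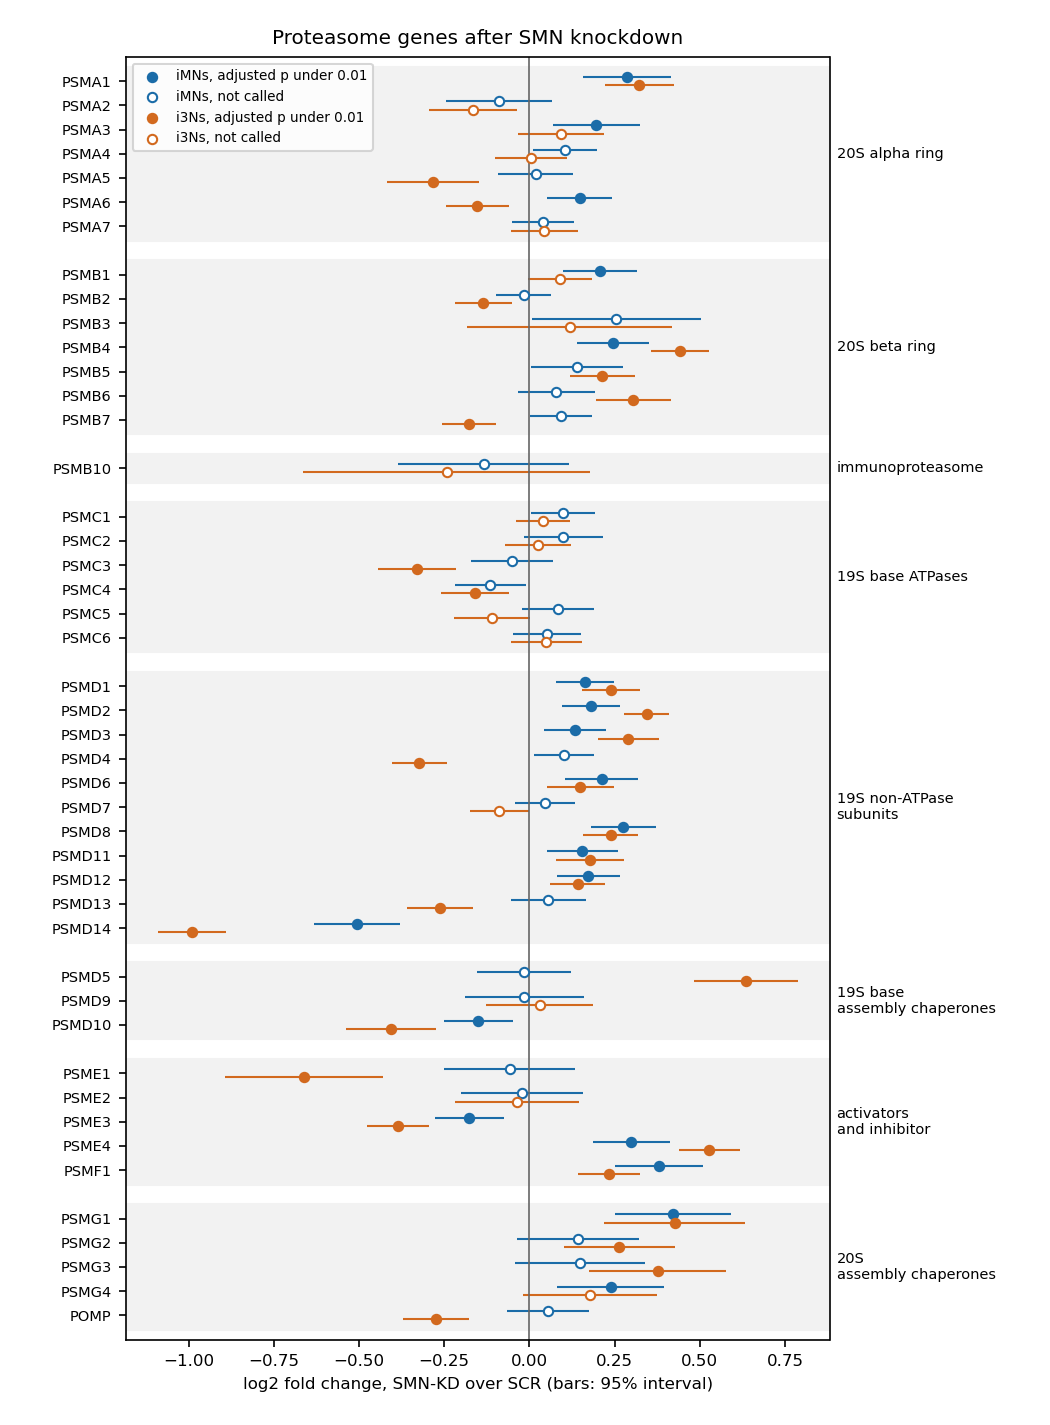
Log2 fold changes of the 45 proteasome genes, *SMN*-KD over SCR, in iMNs (blue) and i3Ns (orange), grouped by role, with 95% intervals from the deposited standard errors and filled points at an adjusted p-value under 0.01. *PSMD14* lies lowest in both cell types, at -0.51 and -0.99, and 12 genes rose in both. The share of all genes that rose in both is not given. Of genes with a mean of at least 100 in both that were called in iMNs, 77.7% were called in i3Ns too.

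**Figure D2:**
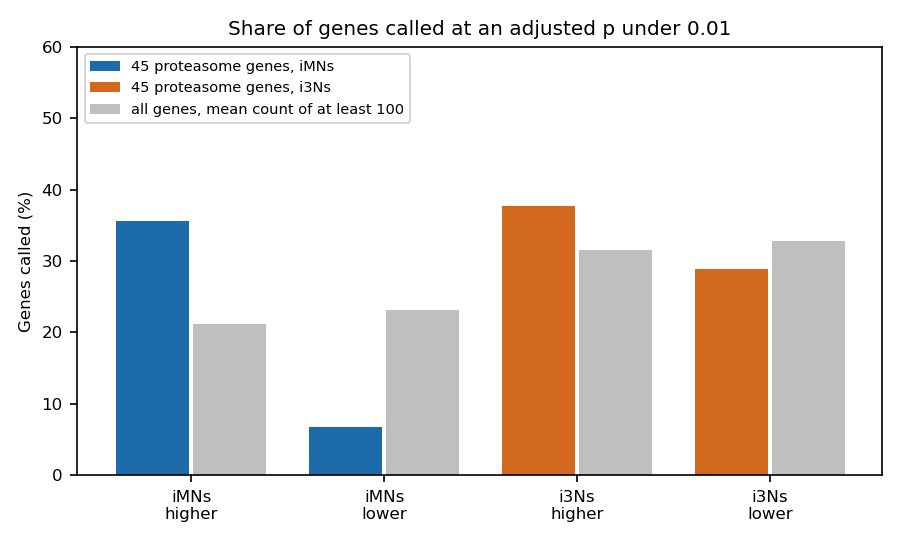
Share of genes that rose or fell at an adjusted p-value under 0.01 (y axis, percent), for the 45 proteasome genes (coloured) and all genes whose mean normalized count was 100 or more (grey). In iMNs 35.6% of proteasome genes rose against 21.2%, and 6.67% fell against 23.1%.

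None of the 45 passed the study's definition of a differentially expressed gene, which adds an absolute log2 fold change above 1. That definition was met upward by 0.969% and downward by 2.37% of all genes in iMNs, and by 4.23% and 9.53% in i3Ns. The nearest to it was *PSMD14* in i3Ns, at -0.99. An absolute log2 fold change above 0.5 was reached by 1 gene in iMNs (*PSMD14*) and by 4 in i3Ns (*PSMD14*, *PSME1*, *PSMD5* and *PSME4*). The share of all genes past 0.5 is not given beside these counts, which are descriptive only. For all genes with a mean of at least 100, the median absolute log2 fold change was 0.19 in iMNs and 0.34 in i3Ns.

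Levels were compared between genes as mean normalized counts per kilobase of coding sequence, in the authors' means over 6 libraries. The 19S ATPases spanned 1884 (*PSMC2*) to 3315 (*PSMC1*) in iMNs and 2369 to 3759 (the same genes) in i3Ns, and the non-ATPase subunits 1749 (*PSMD6*) to 6535 (*PSMD8*) in iMNs. Within the constitutive 20S rings, leaving out *PSMB3*, the highest level, that of *PSMB2*, was 4.09 times the lowest (*PSMA2*) in iMNs and 3.90 times the lowest (*PSMA3*) in i3Ns. Divided by the whole MANE Select transcript, these ratios became 9.21 and 11.0 between other genes, so the spread depends on the length used. Assembly factors and alternative caps were spread widely: in iMNs *PSMG1* (1002), *PSME1* (882) and *PSME4* (874) lay below every ATPase, whereas the cap *PSME3* (5149.6) and the base chaperone *PSMD10* (4780.4) lay above. Per kilobase of the whole MANE Select transcript, *PSME3* (1233) and *PSMD10* (2205) lay within the span of the ATPases there (903 to 2247). *PSMG1* (494), *PSME1* (683) and *PSME4* (666) lay below every ATPase by that length too. *POMP*, whose protein is destroyed each time a core particle matures, stood at 6082 in iMNs and 6087 in i3Ns. The immunoproteasome subunit *PSMB10* was the lowest of the 45, with 371 in iMNs and 127 in i3Ns. Together the 45 genes took 0.319% of all normalized counts in iMNs and 0.341% in i3Ns.

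**Figure D3:**
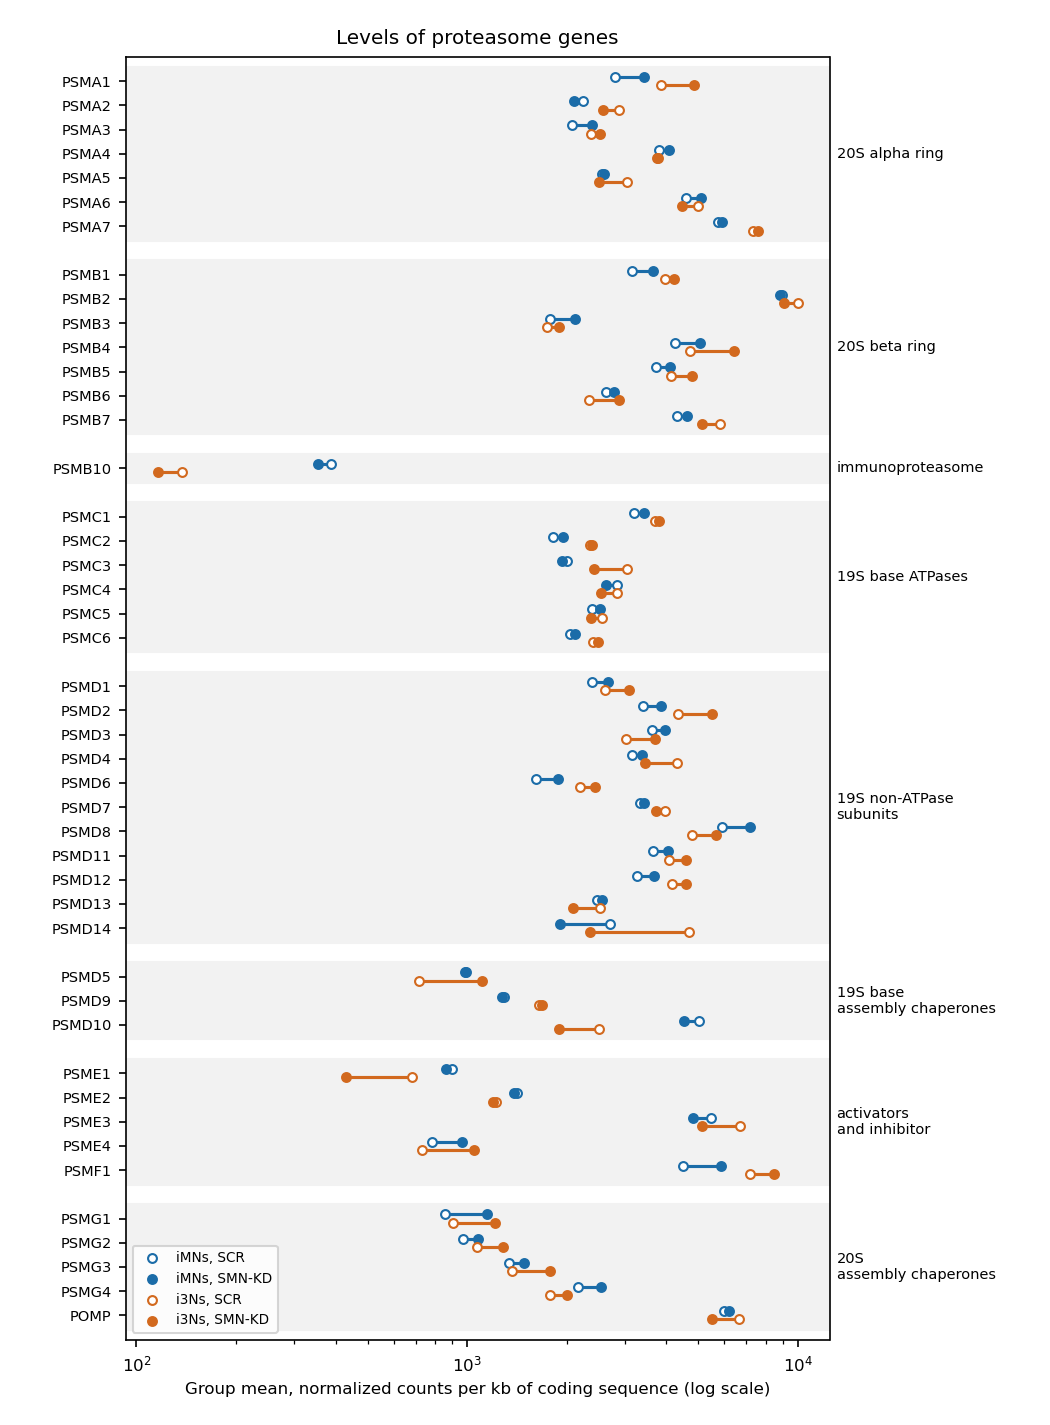
Group means of the 45 genes in normalized counts per kilobase of coding sequence (log axis), SCR (open) and *SMN*-KD (filled), in iMNs (blue) and i3Ns (orange), by role. The ATPases form a narrow band, *PSMB10* is lowest at 371 and 127, and the distance between open and filled points is widest for *PSMD14* in i3Ns.

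In the 20S alpha ring, which gates entry to the barrel, 3 of 7 genes rose in iMNs and none fell, and in i3Ns 1 rose and 2 fell. *PSMA1* rose in both. Its group means were 2218 normalized counts in SCR and 2704 in *SMN*-KD libraries of iMNs, a log2 fold change of 0.29 (SE 0.07, adjusted p = 3.80e-05), and 3055 normalized counts in SCR and 3822 in *SMN*-KD libraries of i3Ns, a log2 fold change of 0.32 (SE 0.05, adjusted p = 9.01e-10). *PSMA6* moved in opposite directions: it rose in iMNs with a log2 fold change of 0.15 (SE 0.05, adjusted p = 0.00614) and fell in i3Ns with a log2 fold change of -0.15 (SE 0.05, adjusted p = 0.00304). Its iMN call was lost when fold changes were centred on the median of the table. *PSMA5*, which holds a guide match, fell in i3Ns, from 2204 to 1813 normalized counts (log2 fold change of -0.28, SE 0.07, adjusted p = 9.99e-05), and had a log2 fold change of 0.02 (SE 0.06, adjusted p = 0.831) in iMNs. *PSMA3* rose in iMNs (0.20) and lay at 0.09 in i3Ns, not called, and the difference between the cell types missed the threshold (adjusted p = 0.398). The other 3, *PSMA2*, *PSMA4* and *PSMA7*, ranged from -0.17 to 0.10 over both cell types and were not called. Summed over the ring, the group means were 17863 in SCR and 19218 in *SMN*-KD iMNs, and 21175 and 21259 in i3Ns.

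In the 20S beta ring, 2 of 7 genes rose in iMNs (*PSMB1* and *PSMB4*) and none fell, and in i3Ns 3 rose and 2 fell. *PSMB4*, a structural subunit, had the largest called rise of the ring in both, from 3381 to 4004 normalized counts in iMNs (log2 fold change of 0.24, SE 0.05, adjusted p = 1.83e-05) and from 3731 to 5068 in i3Ns (log2 fold change of 0.44, SE 0.04, adjusted p = 2.59e-23). The 3 catalytic subunits did not move as 1 block in i3Ns. *PSMB5*, the chymotrypsin-like site, rose by 0.21 on the log2 scale and *PSMB6*, the caspase-like site, by 0.30, while *PSMB7*, the trypsin-like site, had a log2 fold change of -0.18 (SE 0.04, adjusted p = 3.74e-05). *PSMB2* also fell there, with a log2 fold change of -0.14. In iMNs the same catalytic genes lay at 0.14, 0.08 and 0.09 and none was called. The reads of *PSMB3* were split between its main identifier (ENSG00000277791) and one on an alternate sequence (ENSG00000275903), and its separate values are uncertain. Summed over both, its mean was 2322 in SCR and 2525 in *SMN*-KD iMNs and 1778 and 1970.2 in i3Ns, a log2 ratio of 0.12 and 0.15.

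The immunoproteasome subunits had the lowest counts of the set. *PSMB10* had 318 normalized counts in SCR and 289.9 in *SMN*-KD libraries of iMNs and 113 normalized counts in SCR and 95.1 in *SMN*-KD libraries of i3Ns, with log2 fold changes of -0.13 and -0.24 that were not called. In i3Ns, one alternate identifier of *PSMB8* (ENSG00000236443) fell from 48.8 to 9.25 normalized counts, a log2 fold change of -2.40 (SE 0.62, adjusted p = 2.04e-05), the other (ENSG00000231631) was at -0.21 (adjusted p = 0.543), and *PSMB9* (ENSG00000242711) had a log2 fold change of -2.76 (SE 2.02, adjusted p = 0.00986) at a mean of 4.85. Summed over both identifiers, *PSMB8* was 61.3 in SCR and 20.1 in *SMN*-KD i3Ns, a log2 ratio of -1.61. As reads can be split between such identifiers, the values of *PSMB8* and *PSMB9* are uncertain. *PSMB8* and *PSMB9* were the 2 symbols of the set that passed both thresholds of the study. The 95% interval of *PSMB9* from its SE ran from -6.71 to 1.20, so its size is not known. In iMNs the *PSMB8* identifier with a row had a mean of 18.4 and a log2 fold change of -0.05.

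Few of the 19S ATPases changed. None of 6 was called in iMNs, where they ranged from -0.11 (*PSMC4*) to 0.10 (*PSMC1*). In i3Ns 2 fell, *PSMC3* from 4010.3 to 3192 normalized counts (log2 fold change of -0.33, SE 0.06, adjusted p = 4.49e-08) and *PSMC4* with a log2 fold change of -0.16 (SE 0.05, adjusted p = 0.00368), and *PSMC1*, *PSMC2*, *PSMC5* and *PSMC6* lay between -0.11 and 0.05. Summed over the group, the means were 18097 in SCR and 18464 in *SMN*-KD iMNs, and 21442 and 20310.4 in i3Ns.

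The non-ATPase subunits of the 19S particle held both the most frequent rises and the deepest fall. Of 11 genes, 7 rose and 1 fell in iMNs, and 7 rose and 3 fell in i3Ns. The 7 that rose were the same genes in both: *PSMD1* and *PSMD2*, the large scaffolds of the base, and the lid subunits *PSMD3*, *PSMD6*, *PSMD8*, *PSMD11* and *PSMD12*. The iMN calls of *PSMD3* and *PSMD11* were lost when fold changes were centred on the median of the table and when p was taken from the fold change over its SE, and the i3N call of *PSMD6* was lost on centring. In iMNs *PSMD8* rose most, from 6209 to 7515 normalized counts (log2 fold change of 0.28, SE 0.05, adjusted p = 6.94e-08). In i3Ns *PSMD2*, the docking site of ubiquitin shuttle factors and the most abundant member by count, rose most, from 11807 to 14983 (log2 fold change of 0.34, SE 0.03, adjusted p = 5.19e-24). The other rises ranged from 0.13 to 0.21 in iMNs and from 0.14 to 0.29 in i3Ns.

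*PSMD14* (ENSG00000115233, chromosome 2, 161308425 to 161411717, plus strand), the lid's deubiquitinase, was the exception. Its mean was 2523 normalized counts in SCR and 1776 in *SMN*-KD iMNs, so that it fell by 29.6% (log2 fold change of -0.51, SE 0.06, adjusted p = 7.35e-15). In i3Ns it was 4363 and 2197, so that it fell by 49.7% (log2 fold change of -0.99, SE 0.05, adjusted p = 1.20e-82). Of the 45 genes it fell furthest in either table, although among all genes with a mean of at least 100, 1164 (9.11%) in iMNs and 1189 (9.28%) in i3Ns had a lower fold change. Its 3′-UTR, 317 bases long, holds neither 7-mer of the *SMN* guide, which says only that these letters are not in it. *PSMD7*, its partner in the lid, lay at 0.05 in iMNs and -0.09 in i3Ns and was not called. The ubiquitin receptor *PSMD4* fell in i3Ns, from 4883 to 3903 (log2 fold change of -0.32, SE 0.04, adjusted p = 1.85e-14), and had a log2 fold change of 0.10 (SE 0.04, adjusted p = 0.0497) in iMNs. *PSMD13*, another lid subunit, fell in i3Ns with a log2 fold change of -0.26 (SE 0.05, adjusted p = 3.08e-07) and lay at 0.06 in iMNs.

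The chaperones of the 19S base did not move together. *PSMD10* (gankyrin) fell in both, from 3410.2 to 3072 normalized counts in iMNs (log2 fold change of -0.15, SE 0.05, adjusted p = 0.00841) and from 1701 to 1283 in i3Ns (log2 fold change of -0.41, SE 0.07, adjusted p = 6.18e-09). *PSMD5* (S5b) had 1081 normalized counts in SCR and 1679 in *SMN*-KD libraries of i3Ns, the largest rise of the 45 in either table (log2 fold change of 0.64, SE 0.08, adjusted p = 7.37e-16). In iMNs *PSMD5* lay at -0.02 with a 95% interval of -0.15 to 0.12. The iMN call of *PSMD10* was lost when the p-value was taken from the fold change over its SE. *PSMD9* was at -0.01 and 0.03 and was not called.

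Among activators and the inhibitor, 2 of 5 rose and 1 fell in iMNs, and 2 rose and 2 fell in i3Ns. *PSME4* (PA200), a large nuclear cap, rose from 4333 to 5330.2 normalized counts in iMNs (log2 fold change of 0.30, SE 0.06, adjusted p = 6.59e-07) and from 4038 to 5821 in i3Ns (log2 fold change of 0.53, SE 0.05, adjusted p = 2.34e-30). *PSMF1*, the inhibitor PI31, rose by 0.38 (SE 0.07) in iMNs, the largest rise of this group there, and by 0.23 (SE 0.05) in i3Ns. *PSME3*, the nuclear PA28 gamma cap, fell in both, with a log2 fold change of -0.18 (SE 0.05, adjusted p = 0.00177) in iMNs and a log2 fold change of -0.39 (SE 0.05, adjusted p = 1.08e-15) in i3Ns. *PSME1* and *PSME2* form the interferon-inducible PA28 cap together. *PSME1* fell in i3Ns from 509 to 322 (log2 fold change of -0.66, SE 0.12, adjusted p = 3.81e-08) and lay at -0.06 in iMNs, whereas *PSME2* was at -0.02 and -0.04 and was not called.

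Of 5 chaperones of the 20S core, 2 rose and none fell in iMNs, and 3 rose and 1 fell in i3Ns. *PSMG1*, which with *PSMG2* sets up the alpha ring, rose from 740.2 to 991 normalized counts in iMNs (log2 fold change of 0.42, SE 0.09, adjusted p = 1.95e-06), the largest rise of the 45 there, and from 782 to 1051 in i3Ns (log2 fold change of 0.43, SE 0.11, adjusted p = 0.000104). *PSMG4* rose in iMNs (0.24), and *PSMG2* and *PSMG3* rose in i3Ns (0.26 and 0.38). All 4 PSMG genes lay above 0 in both tables. Of all genes with a mean of at least 100, 50.9% in iMNs and 51.2% in i3Ns lay above 0. *POMP*, which brings the beta subunits in, fell in i3Ns from 2819 to 2331 (log2 fold change of -0.27, SE 0.05, adjusted p = 1.35e-07) and lay at 0.05 in iMNs.

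Of 19 genes called in iMNs, 16 (84.2%) were also called in i3Ns, and these were 53.3% of the 30 called in i3Ns. Over all 12071 genes with a mean of at least 100 in both tables, the same shares were 77.7% and 54.1%. The direction was the same for 15: 12 rose in both (*PSMA1*, *PSMB4*, *PSMD1*, *PSMD2*, *PSMD3*, *PSMD6*, *PSMD8*, *PSMD11*, *PSMD12*, *PSME4*, *PSMF1* and *PSMG1*), 3 fell in both (*PSMD14*, *PSMD10* and *PSME3*), and *PSMA6* was the 1 opposite case. Called in neither were 12 genes. The shares of all genes called in the same direction or in neither are not given beside these counts, which are descriptive only. The tables share no library, and across the 45 genes the fold changes of both cell types had a Pearson's r of 0.77 and a Spearman's rho of 0.73, and a Pearson's r of 0.68 without *PSMD14*. Across those 12071 genes r was 0.56 and rho 0.59. These correlations are across genes, which share libraries and are not independent replicates.

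The difference between the cell types was tested gene by gene, as i3N minus iMN with both standard errors, over 16093 genes of both tables. It passed an adjusted p-value of 0.01 for 14 of the 45 proteasome genes, 31.1%, close to the 34.0% of all genes. In 11 of the 14 the i3N value was the lower one and in 3 the higher. How the differing genes of the whole tables split by direction is not given, so this split is not read as a trait of proteasome genes. The largest were *PSMD5* at 0.65 (SE 0.10, adjusted p = 4.24e-09), *PSME1* at -0.60 (SE 0.15, adjusted p = 0.000362), *PSMD14* at -0.48 (SE 0.08, adjusted p = 3.12e-08) and *PSMD4* at -0.42 (SE 0.06, adjusted p = 3.29e-11). *PSMD14*, *PSMD10* and *PSME3* fell further in i3Ns than in iMNs, and *PSMD2* and *PSME4* rose further. For *PSMA5*, *PSMB7*, *PSMC3*, *PSMD4*, *PSMD13*, *PSME1* and *POMP* the i3N value was a called fall and the iMN value was not called.

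**Figure D4:**
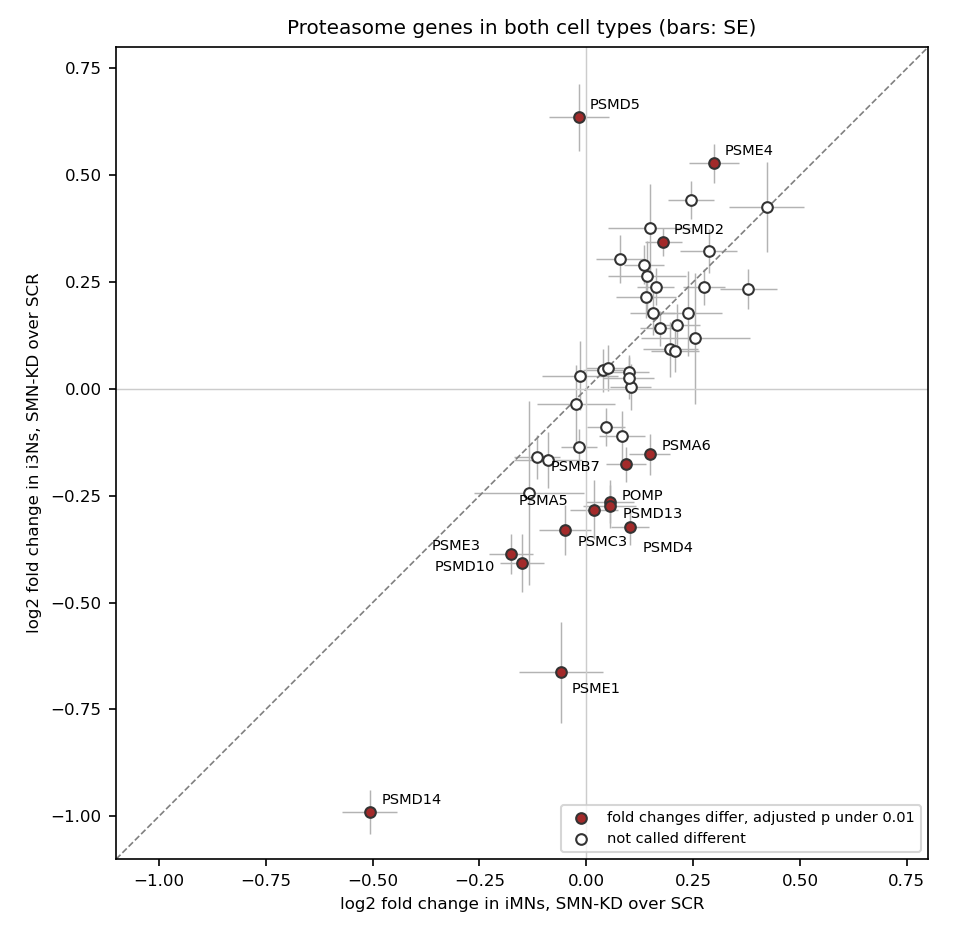
Log2 fold changes of the 45 proteasome genes in iMNs (x axis) and i3Ns (y axis), with standard errors; the dashed line marks equal values, and filled, named points differ at an adjusted p-value under 0.01. *PSMD14* lies at -0.51 and -0.99, *PSMD5* at -0.02 and 0.64, and 11 of the 14 named genes lie below the line. The split over all genes is not shown.

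The median log2 fold change of the 6 genes with a match to the *SMN* guide was 0.03 for iMNs and 0.10 for i3Ns. For the 39 without a match it was 0.10 and 0.04. The median of the 6 was thus the lower one in iMNs and the higher one in i3Ns. Over all genes with a mean of at least 100, the medians with and without a match were -0.17 and 0.04 in iMNs and -0.21 and 0.05 in i3Ns. The length of the 3′-UTR was not matched, and values for the scrambled guide over all genes are not given. The part of the guide in these fold changes was not tested. The 6 ranged from -0.09 (*PSMA2*) to 0.30 (*PSME4*) in iMNs and from -0.28 (*PSMA5*) to 0.64 (*PSMD5*) in i3Ns. *PSME4* and *PSMD12*, whose sequences are among those shown above, rose in both cell types. The scrambled guide's own 7-mers (CTAGTAA and ACTAGTA) occur in the 3′-UTRs of *PSMC2* and *PSMD9*, which were not called in either table.

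Proteasome promoters were searched on both strands for TGACNNNGC, the core of the antioxidant response element that *NFE2L1* and *NFE2L2* bind, in RefSeq windows (GRCh38.p14) from 250 bases before to 50 after the start. The table matched 39 of the 45 genes by symbol, all but *PSMA7*, *PSMB1*, *PSMB6*, *PSMB7*, *PSMD4* and *PSMG3*. The motif was present in 12 (30.8%), against 13.6% of 27305 promoters. CCAAT, the box bound by NF-Y, was present in 17 (43.6%), against 35.7%. The 27305 promoters were not filtered here by expression or gene class or matched for base composition. These shares are therefore descriptive only. The windows below belong to genes that were called in at least 1 table, and *PSMD1*, which rose in both, holds the motif too near the end of its window to be shown with its flanks. Capitals mark the motif, the coordinates are those of the whole line, and lines run 5′ to 3′ along the gene. In *PSMC4* and *PSME4* the motif lies on the opposite strand, so its reverse complement is in capitals. The *PSMC4* match lies after the start, within the last 50 bases of its promoter window.
*PSMC4* (chr19:39971182-39971210, plus strand): acagaggccgGCTTGGTCActatggagga
*PSMD3* (chr17:39980760-39980788, plus strand): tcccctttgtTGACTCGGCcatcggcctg
*PSMD12* (chr17:67366724-67366752, minus strand): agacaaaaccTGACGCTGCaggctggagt
*PSMD5* (chr9:120843038-120843066, minus strand): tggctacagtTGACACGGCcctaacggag
*PSME1* (chr14:24136098-24136126, plus strand): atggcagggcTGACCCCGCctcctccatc
*PSME4* (chr2:53971009-53971037, minus strand): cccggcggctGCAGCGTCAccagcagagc
*PSMG1* (chr21:39183616-39183644, minus strand): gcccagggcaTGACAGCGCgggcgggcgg
*PSMG2* (chr18:12658689-12658717, plus strand): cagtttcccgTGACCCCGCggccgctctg

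For genes with TGACNNNGC the log2 fold changes had medians of 0.14 (iMNs) and 0.19 (i3Ns), and the other 27 had 0.10 and 0.0045. Above 0 lay 7 of the 12 in iMNs and 9 in i3Ns, beside 33 and 27 of all 45 genes. The share above 0 was thus lower among the 12 than among all 45 in iMNs, and higher in i3Ns. Genes with CCAAT had medians of 0.08 and -0.09, and those without it 0.12 and 0.10. In this set the motif went with both directions: *PSMG1*, *PSMD1*, *PSMD3*, *PSMD12* and *PSME4* rose in both cell types, *PSMD5* and *PSMG2* rose in i3Ns, and *PSME1* and *PSMC4* fell in i3Ns. A match of letters does not show that a factor binds there.

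Genes that control proteasome transcription or act beside the proteasome were read from separate lists. Of 9 genes that encode, process or degrade *NFE2L1*-type factors, 5 rose and none fell in iMNs, and 7 rose and 1 fell in i3Ns. Of all genes with a mean of at least 100, 21.2% rose and 23.1% fell in iMNs and 31.5% rose and 32.8% fell in i3Ns, the background for this and the following lists. *NFE2L2*, the stress-responsive relative of *NFE2L1*, rose by 0.54 in iMNs and 0.91 in i3Ns, and *DDI2*, the protease that activates *NFE2L1*, by 0.41 and 0.47. *NFE2L1* itself had a log2 fold change of -0.06 (SE 0.04, adjusted p = 0.226) in iMNs and rose in i3Ns (log2 fold change of 0.18, SE 0.04, adjusted p = 1.13e-05). The extraction ATPase *VCP* rose by 0.25 and 0.18 and *SYVN1* by 0.34 and 0.59, and *FBXW7*, part of a ubiquitin ligase, rose in iMNs (0.16) and fell in i3Ns (-0.42).

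Of 8 proteasome-bound factors, 1 rose and none fell in iMNs, and 2 rose and 2 fell in i3Ns. *ECPAS*, a scaffold that binds the assembled 26S particle, rose from 8311 to 10724 normalized counts in iMNs (log2 fold change of 0.37, SE 0.04, adjusted p = 2.72e-20) and from 4976 to 9213 in i3Ns (log2 fold change of 0.89, SE 0.04, adjusted p = 2.82e-101). The proteasome-bound deubiquitinases *USP14* and *UCHL5* fell in i3Ns with log2 fold changes of -0.21 and -0.51 and lay at -0.06 and -0.14 in iMNs, not called. The ubiquitin ligase *UBE3C* rose in i3Ns (0.65).

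Of 5 ubiquitin and activating enzyme genes, 2 rose and 2 fell in iMNs, and 1 rose and 3 fell in i3Ns. Both ubiquitin-activating enzymes fell in both: *UBA1* lay at -0.21 in iMNs and -0.43 in i3Ns on the log2 scale, and *UBA6* at -0.38 and -0.23. The ubiquitin gene *RPS27A* rose by 0.40 and 0.29. Of 7 shuttle factors with a row, 1 rose and 1 fell in iMNs, and 2 rose and 3 fell in i3Ns. *UBQLN4* fell with a log2 fold change of -0.41 and -0.61, and *ZFAND2A*, which is induced by arsenite and heat, rose by 0.25 and 0.66. Of the proteotoxic stress genes, 3 of 8 rose and 1 fell in iMNs, and 2 of 7 rose and 2 fell in i3Ns. In i3Ns *HSPA1A* had only an alternate identifier and was left out, and *HSPA1B* had a mean of 5.42. *HMOX1* (0.52 and 0.62) and the heat shock gene *HSPH1* (0.31 and 0.15) rose in both. *HSPA1A* rose (0.18) and *SQSTM1* fell (-0.19) in iMNs, and *HSPB1* (-1.09) and *BAG3* (-0.93) fell in i3Ns.

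Of the interferon response genes with a row under a main identifier, 3 of 9 fell and 1 rose in iMNs. In i3Ns, 4 of 10 fell and none rose. Of all genes with a mean of at least 100, 23.1% fell in iMNs and 32.8% in i3Ns. In i3Ns *IFIT3* (12.5), *NLRC5* (26.9), *ISG15* (42.2), *MX1* (57.1) and *IRF1* (64.4) had lower means and were not called. The 32.8% is thus not a like background for the i3N list. *TAP1* had only an alternate identifier in both cell types and was left out. The interferon response is known to induce the immunoproteasome and PA28. *IRF9*, *STAT2* and *TAPBP* fell in both, with log2 fold changes of -1.35, -0.64 and -0.70 in iMNs and -0.84, -0.43 and -2.16 in i3Ns. *TAP2* rose in iMNs (0.47), and *B2M* was at 0.08 (not called) in iMNs and -2.03 in i3Ns. In i3Ns, markers of other cells fell with these genes. All 5 proliferation markers fell, the summed list going from 2041 to 381 normalized counts, and 4 of 5 mesenchymal markers fell, from 10801 to 1098, including *COL1A1* (-3.56). Of 6 glial markers 3 had a row, 2 fell (*OLIG2* and *MBP*), and the sum went from 1927 to 728, with *GFAP*, *AQP4* and *SOX10* without a row. Of 5 immune markers 4 had a row, 1 fell (*CD74*), and the sum went from 102 to 66.0. Of 3 pluripotency markers 1 rose, *LIN28A* (2.14), and the sum went from 1579 to 6896. In iMNs none of the 3 proliferation markers with a row was called, the 4 mesenchymal markers with a row summed to 1864 in SCR and 3229 in *SMN*-KD with 3 rising, and the glial, immune and pluripotency markers with a row were not called. Of 6 general neuron markers, 2 rose and 4 fell in iMNs and 1 rose and 4 fell in i3Ns, and of 6 motor neuron markers 1 rose in each while 4 and 5 fell. Of the glutamatergic markers with a row, 2 of 3 fell in iMNs and 3 of 4 in i3Ns. The part of other cells in the fold changes of proteasome genes was not tested.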

How the data were processed

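RNA-seq of 12 libraries in 4 groups of 3 was used. The authors trimmed reads with fastp, quantified transcripts with Salmon and fitted DESeq2 separately in each cell type. The labels name STAR and hg38 as well, without versions, and the transcript annotation, the use of strand and the filter on low counts are not given in the sources used here. The authors' deposited tables hold each gene's mean normalized count over 6 libraries (counts divided by size factors, a signal with no total per library, so the depth is unknown), the log2 fold change between *SMN*-KD and SCR, its standard error, a p-value and the Benjamini-Hochberg adjusted one. These fold changes and p-values are the authors' own comparison and were used as deposited, because the tables hold no value per library. A test on counts had been planned for that case only. The p-values, readjusted over each table, equalled the deposited ones. The log2 fold changes deposited by the authors appear shrunken: for the 45 genes, fold change over standard error had a median share of the z of the deposited p-value of 0.981 in iMNs and 0.997 in i3Ns.

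Group means were derived from the mean and the fold change, with both groups of 3. The difference between cell types was a Wald z, Benjamini-Hochberg adjusted over 16093 genes. On simulated data of 16093 genes it called 87 of 100 planted differences of 0.5 and 30 of 100 of 0.25. Differences were planted only in genes with high mean counts in both tables. They made up a far smaller share of genes than the 34.0% called in the data. These rates therefore do not carry over to the 45 genes. Lengths, positions and 3′-UTRs came from GENCODE 44 (GRCh38) and promoters from RefSeq (GRCh38.p14). The spans of 17 of the 45 genes overlap another protein-coding gene, and their reads cannot always be told apart. All members are accounted for by role. Full statistics are given for members past both thresholds, members that differ between the cell types, and the largest called rise and fall of each role group. The members and lists were chosen with earlier results of these data known. Of the genes on the lists, 2 are not reported here and were left out of their counts. Alternatives changed thresholds, the filter on means, errors, centring, identifiers and lengths. Python 3.11.15, numpy 2.4.6, pandas 2.3.3, scipy 1.17.1 and matplotlib 3.10.9 were used.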

Additional observations from a re-analysis of the deposited data

Results flagged for a closer look

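Between the cell types, the log2 fold change after *SMN*-KD differed for 14 of the 45 proteasome genes and for 1 alternate identifier, by the test of the difference (i3N minus iMN, adjusted p-value under 0.01 over 16093 genes). At this threshold 34.0% of all genes differed, so such differences are common in these tables. The i3N value was the higher one for *PSMD5* at 0.65 (SE 0.10, adjusted p = 4.24e-09), *PSME4* at 0.23 (SE 0.07, adjusted p = 0.00567) and *PSMD2* at 0.16 (SE 0.05, adjusted p = 0.00892). It was the lower one for 3 genes that fell in both, *PSMD14* at -0.48 (SE 0.08, adjusted p = 3.12e-08), *PSMD10* at -0.26 (SE 0.09, adjusted p = 0.00809) and *PSME3* at -0.21 (SE 0.07, adjusted p = 0.00853). Of the 19S subunits, *PSMD4* differed by -0.42 (SE 0.06, adjusted p = 3.29e-11), *PSMD13* by -0.32 (SE 0.07, adjusted p = 9.66e-05) and *PSMC3* by -0.28 (SE 0.08, adjusted p = 0.00314). In the 20S core, *PSMA5* differed by -0.30 (SE 0.09, adjusted p = 0.00258), *PSMA6* by -0.30 (SE 0.07, adjusted p = 5.47e-05) and *PSMB7* by -0.27 (SE 0.06, adjusted p = 6.09e-05). The chaperone *POMP* differed by -0.33 (SE 0.08, adjusted p = 0.000165) and the cap subunit *PSME1* by -0.60 (SE 0.15, adjusted p = 0.000362). The *PSMB8* identifier ENSG00000236443 differed by -2.34 (SE 0.67, adjusted p = 0.00169), at mean normalized counts of 18.4 in iMNs and 29.0 in i3Ns. All 5 proliferation markers and 4 of 5 mesenchymal markers fell in i3Ns, and none of those with a row was a called fall in iMNs. Their part in these differences was not tested.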

How the results depend on the processing

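Doubling every standard error changed the counts most: rises went from 16 to 0 and falls from 3 to 1 in iMNs, rises from 17 to 6 and falls from 13 to 3 in i3Ns, and differences between the cell types from 14 to 1 (*PSMD4*). An adjusted p-value under 0.001 left 11 rises and 1 fall in iMNs, and 13 rises and 10 falls in i3Ns. With an absolute log2 fold change above 0.5 in place of 1, 1 gene was down in iMNs, and 2 were up and 2 down in i3Ns. The share of all genes past 0.5 is not given. With every identifier counted, 2 were down in i3Ns (*PSMB8* and *PSMB9*). Centring on the median of genes with a mean of at least 100 lost 4 calls in iMNs (*PSMA6*, *PSMD3*, *PSMD11* and *PSMG4*), 1 in i3Ns (*PSMD6*) and 1 difference (*PSMD2*). Taking p from the fold change over its SE lost 3 calls in iMNs (*PSMD10*, *PSMD3* and *PSMD11*). The cause of each change was not tested, beyond the stricter settings themselves. The ratio of the highest to the lowest constitutive 20S gene, 4.09 in iMNs and 3.90 in i3Ns per coding length, was 3.52 and 3.08 without a length, and 9.21 and 11.0 per MANE Select transcript, an alternative chosen after seeing the data, as was leaving *PSMD14* out of the medians. Of the alternatives only centring alters the fold changes themselves, by 0.006 in iMNs and 0.013 in i3Ns. The smallest called ones were 0.13 (*PSMD3*, iMNs) and 0.14 (*PSMB2*, i3Ns) in size, so no called sign could reverse under these settings. Centring shifts the medians by the same amounts, and they moved by less than the median SE of the genes in each alternative. With any annotated 3′-UTR, 6 genes held a guide match too. No paired analysis was possible because the tables hold no values per library. For the same reason no library could be left out.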
